A study of Mus musculus with 3 samples.

Results

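The genes described here are those of the mouse major histocompatibility complex, called H2, that could be measured in bone marrow RNA after testosterone replacement. The rule for members uses their annotation and complete values, not the size of the values. It was set with earlier results of these data known. A spot had to hold a value on all 3 arrays, list exactly 1 gene and carry a symbol that starts with H2-. This left 2 of 3462 measured genes, each with 1 spot. Both are class II genes, H2-Ob and H2-Eb1, and 0 class I genes met the rule. Of the other 4 spots with an H2 symbol, both spots of H2-Ea were without a value on any array, H2-Q1 lacked a value on the third array, and 1 spot listed 2 class I genes and therefore names neither.

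Each array set marrow RNA of 1 testosterone-treated C57BL/6 mouse against that of the placebo mouse paired with it. All mice, the placebo mice included, had been castrated, so that the contrast is testosterone against its absence in castrates. The labels give castration at 7 weeks of age and collection at 17 weeks, and the pellets (12.5 mg, released over 60 days) were carried for 4 weeks. The 3 arrays, T1, T2 and T3, are 3 pairs of mice, with testosterone in the Cy5 channel on T1 and T3 and in the Cy3 channel on T2. The deposited log ratios were taken to be log2 of testosterone over placebo, so that a negative value is lower with testosterone. The direction is likely but not settled, since it rests on the series naming testosterone as the experimental channel, and base 2 was judged from how far the values extend. A ratio holds no expression level, so the labelled tissue could not be checked against the level of its markers.

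Class II molecules present peptides from endocytosed proteins to CD4 T cells, and B cells, dendritic cells and macrophages carry them. Presenting molecules (H2-A and H2-E) meet peptide in an endosomal compartment, where H2-M, the loading chaperone, exchanges the invariant chain fragment for peptide. H2-O, a dimer of H2-Oa and H2-Ob, binds H2-M and restrains this exchange, and it is known chiefly from B cells and the thymic medulla. H2-Eb1 encodes the beta chain of the presenting molecule H2-E. C57BL/6 mice carry a deletion in H2-Ea, the partner chain, and do not display H2-E at the cell surface. Class I molecules present peptides from the cytosol to CD8 T cells and are made by nearly all nucleated cells.

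Class II genes are commonly switched on through a pair of promoter elements, the X box and the Y box, and the promoters of both members are shown to compare these elements. The stretches below are the 250 bases before the gene start in RefSeq, GRCm38.p6, both on the plus strand, at chr17:34238655-34238904 for H2-Ob and chr17:34305617-34305866 for H2-Eb1. Capitals mark TAGCAAC, the core of the X box, and TGATTGG, of the Y box, both searched on both strands. The letters of both were taken as the forms that these 2 promoters share, so that a match in each was given by the choice.
H2-Ob: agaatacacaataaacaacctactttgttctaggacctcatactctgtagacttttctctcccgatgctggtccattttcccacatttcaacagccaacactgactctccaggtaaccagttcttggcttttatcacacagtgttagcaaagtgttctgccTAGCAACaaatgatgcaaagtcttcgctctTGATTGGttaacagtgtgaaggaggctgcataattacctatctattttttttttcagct
H2-Eb1: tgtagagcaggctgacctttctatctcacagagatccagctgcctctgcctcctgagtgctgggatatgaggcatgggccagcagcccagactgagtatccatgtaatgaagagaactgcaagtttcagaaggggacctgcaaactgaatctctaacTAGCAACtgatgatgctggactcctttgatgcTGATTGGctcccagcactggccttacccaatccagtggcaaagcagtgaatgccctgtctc

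In H2-Ob the X core lay 89 to 83 bases before the gene start and the Y box 59 to 53 bases before it, with 23 bases between them. In H2-Eb1 the X core lay 93 to 87 bases before the start and the Y box 61 to 55 bases before it, with 25 bases between. For scale, over 32851 RefSeq promoters of 300 bases, which include 50 bases after the start, 3.66% held the X core, 7.82% the Y box and 0.329% both. Of the 6 other class II H2 genes with a promoter in that table, 5 held the Y box, and 1, H2-Eb2, held both. These matches describe the letters only, and no binding was measured.

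H2-Ob, the restraining beta chain, was lower with testosterone. Arrays T1, T2 and T3 gave log2 ratios of -1.02, -0.85 and -0.97. All 3 pairs lay on the same side of 0 and close together, including T2 with its opposite dyes. Expressed within each pair, the testosterone mouse held 2.02-fold (T1), 1.80-fold (T2) and 1.96-fold (T3) less than the placebo mouse. The mean was -0.95 ± 0.08 (SD, n = 3 pairs), 1.93-fold lower, with a 95% interval of 1.64 to 2.26-fold. By limma across 3462 genes the adjusted p was 0.00273. Of all genes tested, 4.91% passed this threshold, 3.24% lower and 1.68% higher. With 1 of 2 members called, the background share cannot be set against a count. In RNA of whole marrow, fewer cells that express H2-Ob and less H2-Ob RNA per cell cannot be told apart.

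H2-Eb1, the presenting beta chain, did not pass. The 3 arrays gave log2 ratios of -0.26 (T1), -0.65 (T2) and -0.08 (T3). All 3 values were below 0, but that of T2 lay well under the other two, and T3 was close to 0. The mean was -0.33 ± 0.30 (SD, n = 3 pairs), with a 95% interval of -0.63 to -0.03 and an adjusted p of 0.150 by limma. The interval, which is not adjusted for the number of genes, leaves out 0, as did those of 972 of 3462 genes (28.1%). Values below 0 on all 3 arrays were found for 33.9% of all genes, whose median log2 ratio was -0.07.

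**Figure D1:**
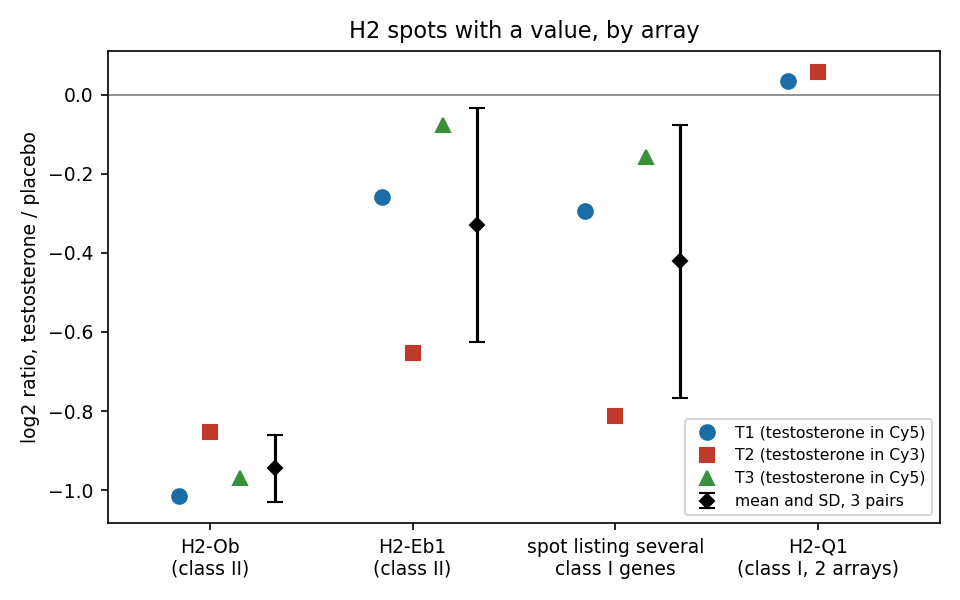
Log2 ratio of testosterone to placebo (y axis) on each array for the 4 H2 spots that have values (x axis), with mean and SD where all 3 arrays gave one. H2-Ob lies between -1.02 and -0.85 on all arrays, whereas H2-Eb1 and the spot of several class I genes are lowest on T2, at -0.65 and -0.81.

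The members differed in how T2, the array of reversed dyes, stood to the others. For H2-Ob, T2 was 0.14 above the mean of T1 and T3. For H2-Eb1 it was lower by a wider margin, with a difference of -0.49. Ranked from the lowest of 3462 genes, H2-Ob was at rank 39 (T1), 78 (T2) and 23 (T3). H2-Eb1 was at rank 577 (T1), 169 (T2) and 1602 (T3), which places it in the middle of all genes on the last array.

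Within each array H2-Ob was lower than H2-Eb1, by a log2 difference of -0.76 (T1), -0.20 (T2) and -0.89 (T3), with a mean of -0.62 ± 0.37 (SD, n = 3 pairs). An exact sign-flip permutation test, two-sided, gave p = 0.25, which is the smallest that 3 pairs allow, so the test could not separate the members. On T2 their gap was narrowest. The median of the members, here the same as their mean, was -0.64 (-0.64, -0.75 and -0.52 by array).

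The mean of H2-Ob ranked 36th from the lowest of 3462 genes, and its p ranked 17th. Its SD of 0.08 compares with a median SD of 0.17 over all genes, and 17.1% of genes had a smaller one. The mean of H2-Eb1 ranked 309th from the lowest, and 82.6% of genes had a smaller SD than its 0.30. The change of H2-Ob thus falls just short of 2-fold with little scatter, while that of H2-Eb1 is about the size of its scatter.

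**Figure D2:**
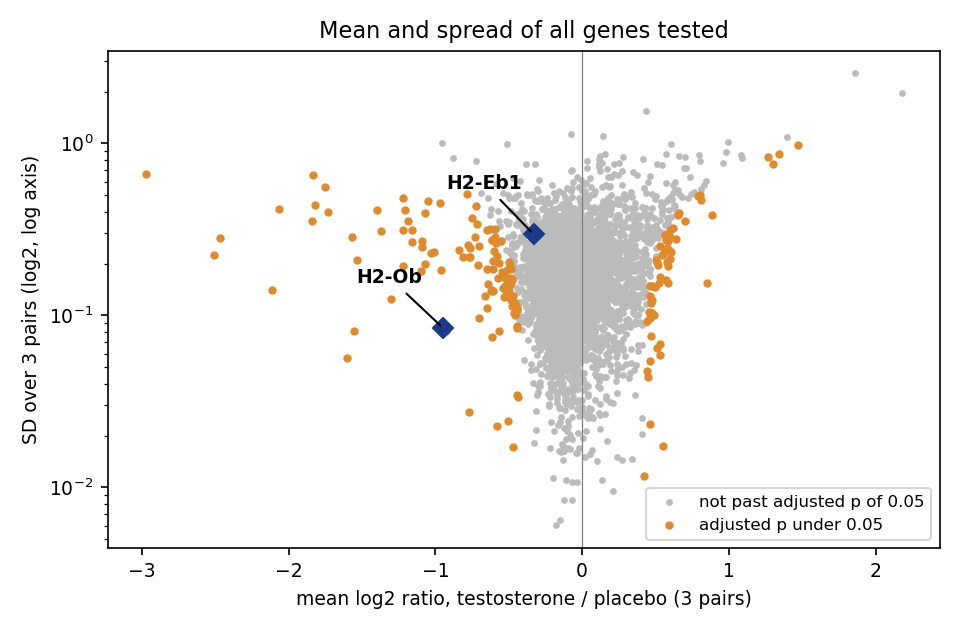
Mean log2 ratio over 3 pairs (x axis) against the SD over the pairs (y axis, log scale) for each of 3462 genes, orange where the adjusted p was under 0.05. H2-Ob stands at a mean of -0.95 with an SD of 0.08, outside the grey mass of genes, and H2-Eb1 stands at -0.33 with an SD of 0.30, inside it.

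Class I genes could be seen only outside the rule. The spot that listed several class I genes gave -0.29, -0.81 and -0.16 by array (mean log2 ratio -0.42 ± 0.35, SD, n = 3 pairs). It did not pass in the limma fit of 6039 spots, where 2.83% of spots passed (adjusted p = 0.0972). Its order over the arrays was that of H2-Eb1, lowest on T2 and highest on T3. H2-Q1, a class I gene outside the classical set, had 0.03 on T1 and 0.06 on T2. Fitted with the 4054 genes that had values on at least 2 arrays, of which 3.8% passed, its mean was 0.05, with a 95% interval of -0.25 to 0.34 (limma adjusted p = 0.841). Class I genes are much alike in sequence, so a spot may hybridise with RNA of several of them.

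Genes that lie among the H2 genes on chromosome 17 passed in both directions. This set was formed after values had been seen, from the order of genes in RefSeq between H2-K2 and H2-M2, the outermost genes with an H2 symbol. Of 285 annotated genes 25 were measured, of which 4 fell and 2 rose by limma, against 3.24% lower and 1.68% higher among all genes. The 4 include H2-Ob, the member already called. Whether the complex holds more calls than other genes was not tested. The median of the 25 was -0.11, beside -0.07 over all genes, and 18 means were below 0, as were 2162 of 3462 over all genes. H2-Ob had the lowest of the 25. Its nearest measured neighbours were Psmb8 on one side and H2-Eb1 on the other.

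Psmb8, an inducible catalytic subunit of the immunoproteasome, which cuts peptides for class I presentation, had log2 ratios of -0.43, -0.68 and -0.50 by array. It was 1.45-fold lower (mean -0.54 ± 0.13, limma adjusted p = 0.0409, n = 3). Psmb9, a second inducible subunit beside it, had -0.10, -0.36 and -0.32 on the same arrays and did not pass (mean -0.26 ± 0.14, limma adjusted p = 0.158). All 3 pairs lay below 0 for both subunits.

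The other genes of the complex past the threshold were D17H6S56E-5, Nrm, Ly6g6c and Gabbr1. D17H6S56E-5 was lower (log2 ratio -0.58 ± 0.02, limma adjusted p = 0.0228, n = 3), and Nrm, which encodes a protein of the inner nuclear membrane, was 1.49-fold lower (-0.57 ± 0.17, limma adjusted p = 0.0391). Ly6g6c, a surface protein of the Ly6 family, was 1.62-fold higher (0.70 ± 0.35, limma adjusted p = 0.045). Gabbr1, a subunit of the GABA-B receptor, was 1.43-fold higher (0.51 ± 0.21, limma adjusted p = 0.0475). Of these 4 and Psmb8, 0 passed by limma without T2, where 35 of 3462 genes passed, and 0 without T3, where 33 did. In both cases 5 of 5 had an unadjusted p under 0.05. They were picked for passing on the same arrays, so this lends no further support. After median centring D17H6S56E-5 alone passed. Gabbr1 did not pass in the fit of genes with values on at least 2 arrays (limma adjusted p = 0.0505).

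**Figure D3:**
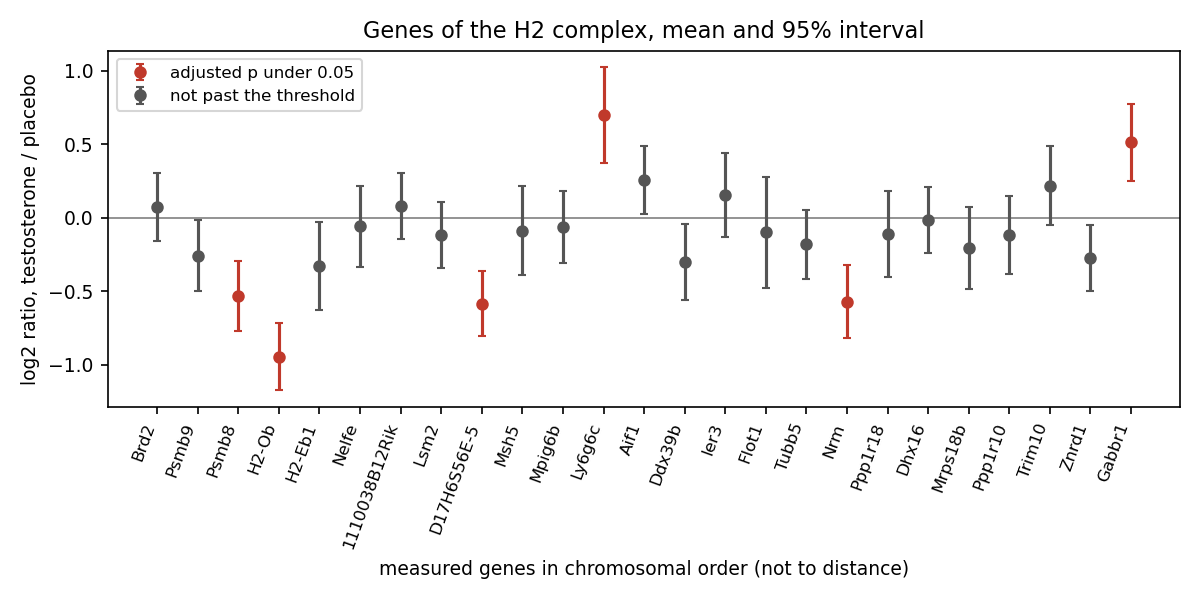
Mean log2 ratio with its 95% interval (y axis) for the 25 measured genes between the outermost H2 genes, in chromosomal order (x axis, equal steps), red where the adjusted p was under 0.05. H2-Ob at -0.95 is the lowest point, H2-Eb1 beside it is at -0.33, and Ly6g6c at 0.70 is the highest.

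Among other listed genes of antigen presentation, 1 passed. In the class I pathway (immunoproteasome, peptide transport and loading), 10 of 15 listed genes were measured. Psmb8 was the single one lower, 0 were higher and 9 did not pass, beside 3.24% lower among all genes. An unadjusted p under 0.05 was found for 4 of the 10, beside 28.1% of all genes, and the median was -0.09. Psmb10, the remaining inducible subunit and named after its values were seen, had -0.44, -0.79 and -0.33 by array. It did not pass (mean -0.52 ± 0.24, limma adjusted p = 0.0502, n = 3). By limma adjusted p it passed without T1 (0.00511), with a dye term (0.0326), after centring and scaling (0.0387) and with robust eBayes (0.0485). It did not pass without T2 (0.234), without T3 (0.255), after median centring (0.0654), among genes on at least 2 arrays (0.0525) or with T2 turned (0.999). In the class II pathway, 5 of 13 were measured, 4 cathepsins and the tetraspanin Cd9. By limma 0 of them passed, beside 4.91% of all genes (1 at an unadjusted p under 0.05, beside 28.1%), and the median was -0.06. Cathepsin B, Ctsb, an endosomal protease, had 0.22, 0.33 and 0.48 by array (mean 0.34 ± 0.13, limma adjusted p = 0.0878, n = 3). Cathepsin H, Ctsh, had a mean of -0.25 ± 0.21 and cathepsin L, Ctsl, of -0.23 ± 0.38. The invariant chain Cd74, the loading chaperone H2-M and the partner chain H2-Oa were not analysed here.

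Among regulators of MHC genes 9 of 23 were measured and 0 passed by limma in either direction, beside 4.91% of all genes. An unadjusted p under 0.05 was found for 2 of them, beside 28.1% of all genes. Of their means 8 were below 0, as were 2162 of 3462 over all genes. Their median was -0.19, beside -0.07 over all genes. Nfyb, a subunit of the factor that binds the Y box, had -0.38, -0.33 and -0.30 by array (mean -0.34 ± 0.04, limma adjusted p = 0.0769, n = 3). The 3 pairs lay close together. Nfyc, its partner subunit, had a mean of 0.06. The interferon regulatory factors Irf2 (-0.31 ± 0.08, limma adjusted p = 0.0965) and Irf1 (-0.25 ± 0.21, limma adjusted p = 0.194) did not pass. Azgp1, the single measured gene of those related to class I outside the complex, had a mean of 0.003, and 0 of 14 listed receptors of MHC molecules were measured on all arrays. Ciita, the main switch of class II transcription, was not analysed here.

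Markers of the B lineage were mostly lower, as H2-Ob was. Of 23 listed markers 10 were measured, of which 8 were lower, 0 higher and 2 did not pass, beside 3.24% lower among all genes; with T2 turned 0 passed by limma and the median was -0.59. Their median as deposited was -1.95 (-2.11, -2.16 and -1.60 by array), and their means ran from -2.98 to 0.09. Several of these markers were listed with their values in these samples already known. The lowest p belonged to Fcrla, which is related to Fc receptors (mean -2.51), Cd79b, a chain of the B-cell receptor (-2.11), and Bach2, a B-cell transcription factor (-2.47), each with a limma adjusted p of 7.73e-05 (n = 3). H2-Ob at -0.95 was thus less negative than the median marker and than 7 of the 8 that passed, Bank1 (-0.51 ± 0.02) being the exception. The 2 markers that did not pass also lay above H2-Ob. They were Ms4a1 (mean -0.25 ± 0.37) and Cd24a (0.09 ± 0.17). The part of B-lineage RNA in the result for H2-Ob was not tested.

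Markers of the other cells that carry class II did not pass. Of 9 measured monocyte and macrophage markers 0 passed by limma (3 at an unadjusted p under 0.05), with a median of 0.11 and means from -0.07 to 0.33. Of 13 listed dendritic cell markers only 2 were measured, and 0 passed by limma (0 unadjusted). Cd80, a costimulatory ligand, had a mean of -0.09 ± 0.38 and Cd83, a maturation marker, of 0.03 ± 0.59. Markers of T and NK cells were measured on all arrays for 0 of 16 genes. Neutrophil markers (0 of 5 passed by limma and 0 unadjusted, median 0.04) and erythroid markers (0 of 5 passed, 3 unadjusted, median 0.35) had medians above 0. Skeletal muscle markers (0 of 5 passed by limma, 4 unadjusted) had a median of -0.42, and their median, like the value of H2-Eb1, was lowest on T2 (-0.03, -0.82 and -0.45 by array). A lowest value on T2 was not particular to muscle markers. The median of all genes was also lowest there (-0.038, -0.116 and -0.055 by array). So were the medians of both pathway lists, the regulators, and the B-lineage and the monocyte and macrophage markers. Those of dendritic, neutrophil and erythroid markers were not. The part of muscle RNA in the value of H2-Eb1 was not tested.

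**Figure D4:**
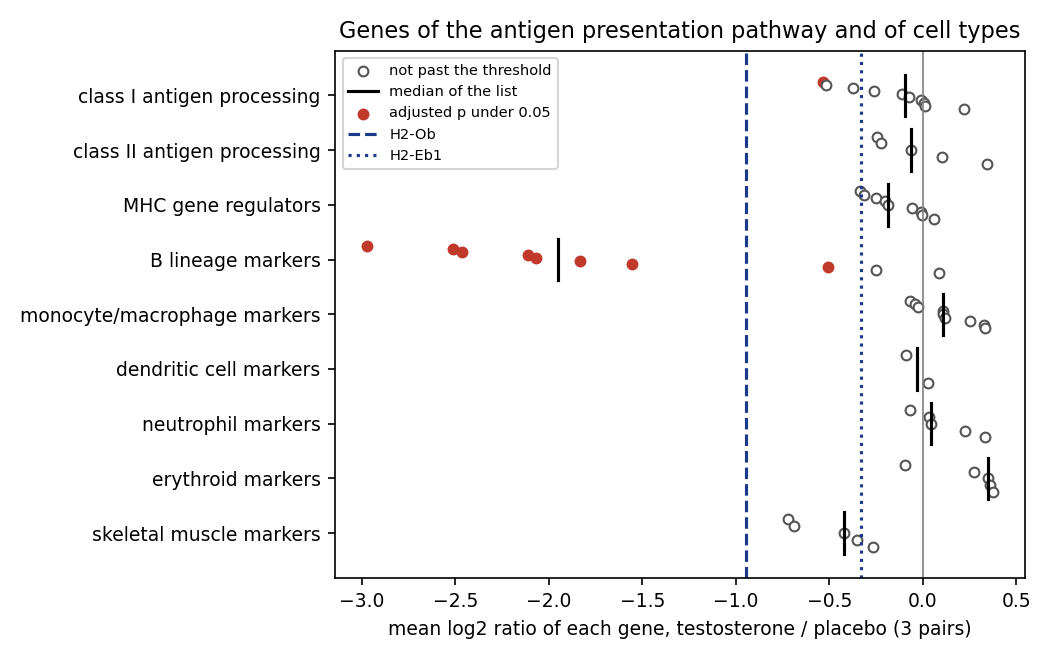
Mean log2 ratio over 3 pairs (x axis) of each measured gene in lists of the antigen presentation pathway and of cell type markers (rows), with the median of each list as a black bar and the 2 H2 members as vertical lines. The 8 red points of the B lineage row run from -2.98 to -0.51, all but Bank1 lying to the left of H2-Ob. Psmb8 is the single red point in the other rows.

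Genes with the values most like those of the members over the 3 arrays were found by Euclidean distance of the log2 ratios, over all 3462 genes. For the mean of both members these were Herpud1, an endoplasmic reticulum stress protein (distance 0.0493), D17H6S56E-5 (0.166) and Selenow, a selenoprotein (0.177). For H2-Ob alone they were Ifi214, of an interferon-inducible family (0.138), Foxp1, a transcription factor required early in the B lineage (0.166), and Cerk, the ceramide kinase (0.311). Ifi214 had -1.01, -0.92 and -0.85 on T1, T2 and T3, and Foxp1 -1.16, -0.80 and -0.91. For H2-Eb1 they were Sf3b1, a splicing factor (0.0417), Paip2, a translational inhibitor (0.0583), and Gm7308 (0.0729). Since the distance uses the same values as the test, their calls repeat those of the members.

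The call of H2-Ob depended on T3 and on the sign of T2. It was kept without T1 (limma adjusted p = 7.67e-06), where 623 of 3462 genes passed, and without T2 (0.0337), where 35 passed. Without T1 the standard error of H2-Ob was 0.14, against 0.098 with all 3 pairs, so the smaller p is not stronger support from fewer mice. Without T3 the mean was -0.93 and the limma adjusted p was 0.0522, just above the threshold of 0.05. If T2 were a ratio of Cy5 to Cy3 its sign would turn, and the mean would be -0.38 for H2-Ob (limma adjusted p = 0.999) and 0.11 for H2-Eb1. With the values read as natural logarithms the difference of H2-Ob would be 2.57-fold.

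**Figure D5:**
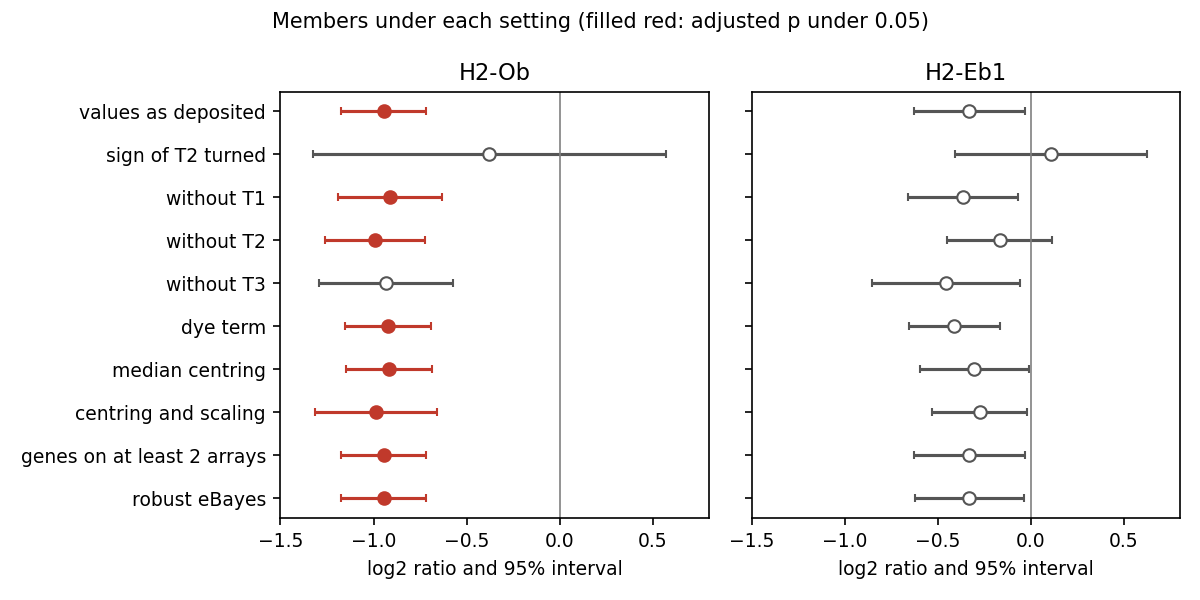
Log2 ratio with its 95% interval (x axis) of H2-Ob and H2-Eb1 under each setting (rows), filled red where the adjusted p was under 0.05. H2-Ob lies between -0.99 and -0.91 in all rows other than the one with T2 turned (-0.38), and H2-Eb1 is not past the threshold in any row.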

How the data were processed

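Bone marrow RNA was compared on 3 two-colour spotted arrays. The deposited values are signed log ratios read as log2, 1 per spot and array; which scanner, background correction and normalization the authors used is not stated there. They were used as deposited. Spot brightness was not analysed here, and the number of arrays limits the precision. No array was turned in sign: all pairs of arrays correlated positively across spots (Pearson r from 0.422 to 0.734).

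The platform annotation gave 1 gene for 8050 of 11552 spots, of which 7880 matched RefSeq (GRCm38.p6) by Entrez ID. Spots of 1 gene were averaged per array (854 genes), and 3462 genes with values on all arrays were tested against 0 in R 4.3.3 with limma 3.58.1 (lmFit, eBayes; two-sided; Benjamini-Hochberg over all genes; threshold 0.05); 12 control spots were left out. The fit was tested on simulated data. Nothing in the labels says that pairs were independent beyond being separate mice.

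Named were both members, the listed pathway genes past the threshold or else the 3 of smallest p, and the 3 nearest genes by distance; Psmb9, Psmb10, Nfyc, Bank1, the genes of the complex and the neighbours of each single member were chosen after values were seen. Members and lists were chosen with earlier results of these data known. The planned class I median could not be computed, as no class I gene met the rule. Alternatives were T2 turned, each array left out, a dye term, centring, scaling, robust eBayes, genes with 2 or more values, 1 row per spot and a threshold of 0.10; the natural-log reading was added after seeing the data.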

Additional observations from a re-analysis of the deposited data

How the results depend on the processing

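Each value is already a ratio within a pair, so the test against 0 is the paired comparison. With 1 group of pairs, no unpaired alternative was run. With the sign of T2 turned, 0 of 3462 genes passed by limma (19 had an unadjusted p under 0.05), so 0 H2 genes did, the median of the H2 members was -0.14, H2-Ob was -0.38 and H2-Eb1 turned to 0.11. Also turned were Ctsh (0.055), Irf1 (0.078), Ctsl (0.21), Azgp1 (-0.02), Ly6g6c (-0.003), Psmb10 (0.006), Sf3b1 (0.092), Paip2 (0.11) and Gm7308 (0.073). Leaving out 1 array gave 33 (without T3) to 623 (without T1) genes past the threshold, against 170, and 35 without T2. It gave 0 to 1 H2 genes, a median of the members from -0.70 to -0.58, H2-Ob from -0.99 to -0.91 and H2-Eb1 from -0.46 to -0.17; Azgp1 ran from -0.13 (without T3) to 0.15 (without T1). The genes past the threshold numbered 385 with a dye term, 63 after median centring, 263 after centring and scaling and 498 at an adjusted p of 0.10. Their higher share was 34.1% as deposited, 11.1% after centring and 52.1% after scaling. The cause of these shifts was not tested. H2-Ob passed and H2-Eb1 did not with the dye term, centring, scaling, values on at least 2 arrays, robust eBayes, the threshold of 0.10 and 1 row per spot. H2-Eb1 came closest with the dye term (mean -0.41, limma adjusted p = 0.055, just above 0.05), and had 0.0748 without T1. No alternative that needs values on all 3 arrays gave a class I median, since no class I gene met the rule.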
